A study of Mus musculus with 26 samples.

Results

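The proteasome is described here through 41 genes whose liver RNA was measured on microarrays in 26 mice. Every probe whose symbol in the array annotation starts with Psma, Psmb, Psmc, Psmd, Psme, Psmf or Psmg was taken, which gave 67 probes of 45 genes among 25697 probes and 16593 annotated genes. A gene was kept when a probe was detected, at a detection p under 0.01, on at least 4 arrays, and 41 genes with 56 probes passed, out of 7953 tested genes. The 4 genes that did not pass were the alpha subunits Psma1 and Psma6, which were detected on 0 arrays, and the assembly chaperone Psmd5 and Psmc3ip, which were each detected on 1. A filter of this kind keeps a gene that is high in a single group, so members near the detection limit are described with their detection counts. Psmb8 alone passed only through 1 group, with 6 of its 9 detections in B6. Of the kept members, 35 were detected on all 26 arrays. Psmc3ip and Psme3ip1 carry the prefix but are no subunits; the latter encodes a protein that binds the activator PSME3. Psmd3, Psmb11, Psma8, Psme2b, Psmf1 and Psmg4 were not analysed here.

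The proteasome degrades proteins that carry ubiquitin chains. Its core particle is a stack of alpha and beta rings, in which PSMB5, PSMB6 and PSMB7 cut after hydrophobic, acidic and basic residues, respectively. The regulatory particle binds the chains, removes them and feeds the unfolded substrate into the core, driven by a ring of PSMC ATPases that is joined to a lid and base of PSMD subunits. Interferon gamma induces PSMB8, PSMB9 and PSMB10, which replace PSMB5, PSMB6 and PSMB7 in the immunoproteasome, and the activator subunits PSME1 and PSME2. Leukocytes carry the immunoproteasome constitutively, and its peptides are loaded on class I molecules. The transcription factor NFE2L1 is known to raise proteasome subunit genes together when proteasome activity falls.

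By role, the kept members were 5 alpha subunits, 4 structural beta subunits, 3 constitutive catalytic beta subunits, 3 immunoproteasome catalytic subunits, 6 ATPases, 10 non-ATPase subunits of the regulatory particle, 2 assembly chaperones of the regulatory particle, 2 interferon-inducible activator subunits, 2 other activators, 3 assembly chaperones of the core, and Psme3ip1.

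Female ob/ob mice on the C57BL6 background, which make no functional leptin and are obese, were assigned to treatment at 15 weeks of age and infused for 12 days from an osmotic pump. Groups of 4 mice were LEP-SQ (leptin at 10 µg/d under the skin), VEH-SQ (saline under the skin), VEH-ICV (artificial cerebrospinal fluid into the lateral ventricle), LEP-ICV (leptin at 1.5 µg/d into the ventricle, mice that lost weight) and LEP-ICVN (assigned the same ventricular leptin, mice that did not lose weight). Cannula placement was not established in some or all LEP-ICVN mice, and LEP-ICV and LEP-ICVN were separated by weight response, not by treatment. A further 6 C57BL6 mice labelled baseline (B6) carry the functional leptin gene, with sex and age not given in the sources used here. Each array held the liver RNA of 1 mouse, and a mouse is named by its group and the number in its label.

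Levels are log2 intensities after background correction and quantile normalization, a change is a difference of group means on that scale with its standard error (SE), and a member was called at an adjusted p under 0.05 from limma (Benjamini-Hochberg over all tested probes). Background on the arrays fell into separate ranges. The median signal of probes with a detection p above 0.5 was 99.3 to 114 on 12 arrays and 153 to 186 on 14. The low range held every vehicle array and the high range every array of LEP-SQ and of B6, while LEP-ICV and LEP-ICVN held both. LEP-SQ against VEH-SQ, and vehicle-treated ob/ob against B6, therefore cannot be told apart from array background. A model with the background class as a term takes the class effect from the LEP-ICV and LEP-ICVN arrays, and its values are given for each comparison and for the members described in detail. The plot of changes shows them for every member. Of the comparisons made, LEP-SQ against B6 is the 1 between whole groups that lie in a single class. The hepatocyte markers Alb, Apoa1, Ttr and Cps1 were detected on every array and Tat on none, and their summed level was 16.48 to 16.91 in all groups. Single markers moved: Alb changed by 2.43 and Cps1 by -3.38 in vehicle-treated ob/ob against B6, and by -3.11 and 2.14 in LEP-SQ against saline.

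**Figure D1:**
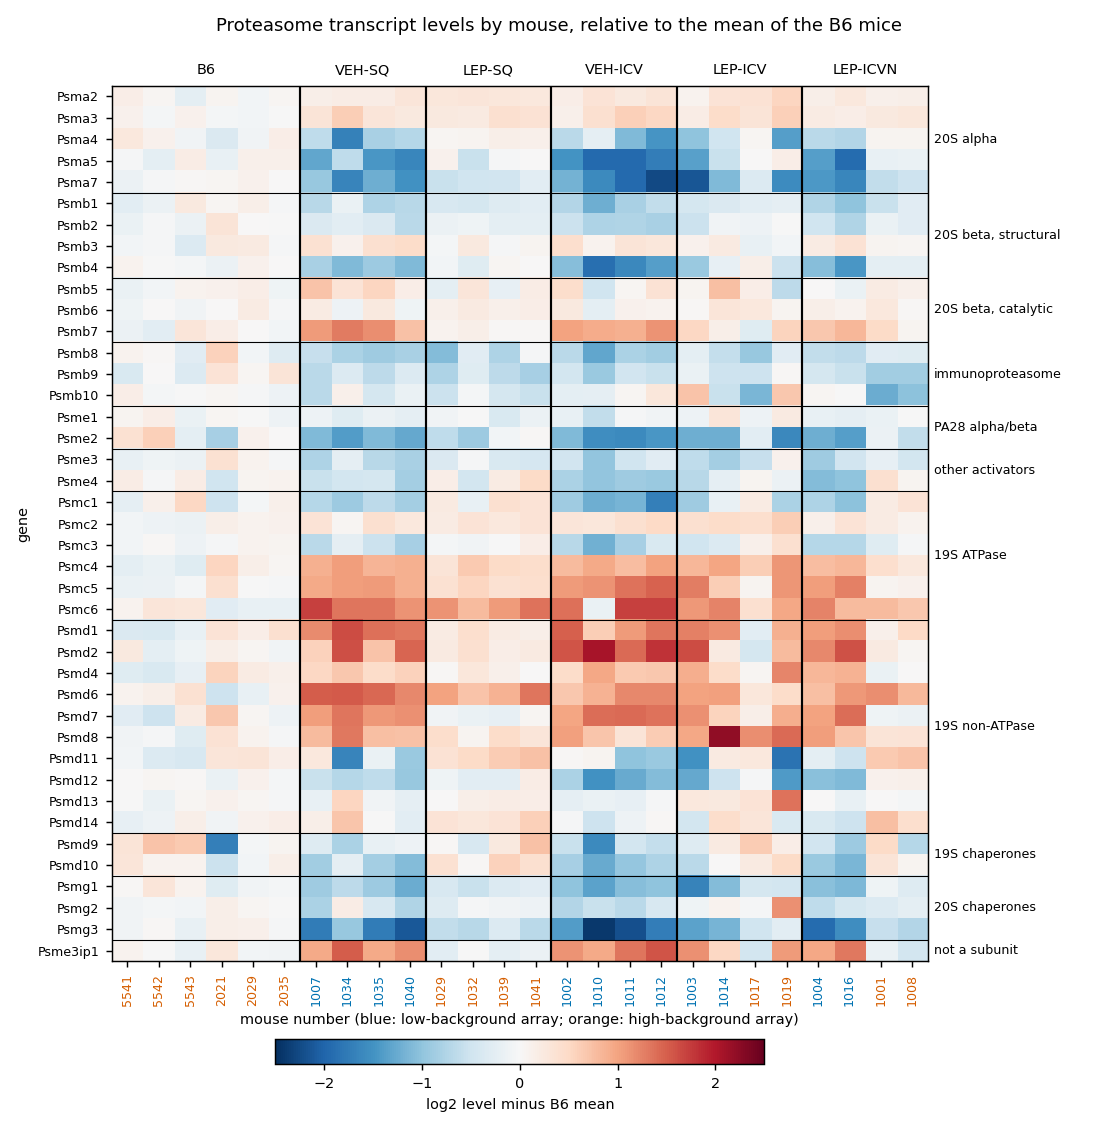
Heat map of the 41 members (rows, ordered by role) in the 26 mice (columns, ordered by group), coloured by log2 level minus the B6 mean of the same gene. Blue mouse numbers mark the 12 arrays of low background and orange the 14 of high background; in LEP-ICVN the values of Psma5, Psmb4 and Psmg3 are lower in both low-background mice than in both high-background mice.

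Against B6 at the same array background, the regulatory particle subunits Psmd6 and Psmc6 were called higher in LEP-SQ livers and the immunoproteasome subunit Psmb9 lower. These 3 of 41 members (7.32%) were called in LEP-SQ against B6, where the share of all tested genes was much the same, 7.28%. The same 3 were called with the background term (12.7% of all genes). Median scaling called Psmc6 alone (3.65% of all genes), and the authors' log2 values called 5 members without Psmc6 (7.66%). LEP-SQ and B6 mice differ in the leptin gene and in leptin infusion, and may not be matched in other respects. Which of these the calls go with was not tested. Without LEP_SQ_1041 1 member was called, Psmd6, with the share of all genes in that fit not given. The median change of the members was 0.07 and that of all genes 0. On high-background arrays alone 1 further member was called, the core chaperone Psmg3, whose change was -0.59 (12.9% of all genes called). In 10 members the LEP-SQ and B6 values did not overlap, against 19.6% of all genes. High-background LEP-ICV mice (2 against 6) gave 7 called members against B6, with 26.3% of all genes called: Psma3 (0.46), Psmc2 (0.52), Psmc4 (0.86), Psmc6 (0.68), Psmd8 (1.29) and Psmd13 (0.85) were higher and Psma7 (-0.97) lower. In that comparison Psmd6 was at 0.37 (adjusted p = 0.26 by limma) and Psmb9 at -0.25 (adjusted p = 0.46), and neither was called. The high-background LEP-ICVN mice gave 2, Psmd6 higher and Psmg3 lower (5.34% of all genes).

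Psmd6, a lid subunit of the regulatory particle, had a lowest, median and highest level of 6.36, 6.98 and 7.26 in the 6 B6 mice. In LEP-SQ the values were 7.88, 7.60, 7.76 and 8.21, and in VEH-SQ 8.39, 8.41, 8.32 and 8.08. VEH-ICV mice gave 7.55, 7.76, 8.09 and 8.09. Every B6 mouse lay below every mouse of these groups. In LEP-ICV the levels were 7.89, 7.90, 7.17 and 7.34, and in LEP-ICVN 8.04, 7.63, 7.69 and 7.96. LEP_ICV_1017 alone among the ob/ob mice fell inside the B6 range. The change in LEP-SQ against B6 was 0.98 ± 0.19 (SE, 1.98-fold, adjusted p = 0.0031 by limma), and on high-background arrays alone the adjusted p was 0.0048. High-background LEP-ICVN mice gave a like difference from B6, 0.98 ± 0.24 (2 mice against 6, adjusted p = 0.031 by limma, with 5.34% of all genes called). In vehicle-treated ob/ob against B6 the change was 1.2 ± 0.16 (2.3-fold, adjusted p = 1.7e-06) and 0.92 ± 0.25 with the background term (adjusted p = 0.028). A second, dimmer Psmd6 probe changed by 3.16 in vehicle-treated ob/ob against B6 and by 1.03 ± 0.46 in LEP-SQ against B6, the latter not called (adjusted p = 0.19). Scaling arrays to a common median in place of quantile normalization removed both Psmd6 calls, with changes of 0.90 (adjusted p = 0.16, median of all genes -0.11) in LEP-SQ and 0.24 (adjusted p = 0.46) in vehicle-treated ob/ob.

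Psmc6, an ATPase of the ring that unfolds substrates, was near the detection limit and was detected on 0 of 6 B6 arrays but on 3 of 4 LEP-SQ and 3 of 8 vehicle arrays. Its measured levels in B6 were 5.02 to 5.61 with a median of 5.26. In LEP-SQ they were 6.43, 6.11, 6.38 and 6.66, and in VEH-SQ 7.03, 6.65, 6.64 and 6.43. No B6 mouse reached a LEP-SQ or VEH-SQ mouse. The VEH-ICV values were 6.69, 5.15, 7.03 and 7.02, so that VEH_ICV_1010 lay within the B6 range. LEP-ICV and LEP-ICVN ranged from 5.71 to 6.55, above all B6 mice. Where a probe is detected on no array of a group, a fold is taken against the lowest signal detected on each array of that group. Such a fold is a lower bound only where the arrays of the other group detected the probe. By this measure Psmc6 was 1.32-fold higher in LEP-SQ than in B6, with 3 of 4 LEP-SQ arrays detected (measured means 6.40 and 5.31, adjusted p = 0.016 by limma). It was also higher in vehicle-treated ob/ob (adjusted p = 4.9e-05, and 0.14 with the background term, limma). No fold is given there, since only 3 of 8 vehicle arrays detected it. Without LEP_SQ_1041 the LEP-SQ change was 1.0 with an adjusted p of 0.073, and in the authors' log2 values it was 0.07 (adjusted p = 0.42).

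Psmb9, the immunoproteasome subunit that takes the place of Psmb6, had a lowest, median and highest level of 10.09, 10.50 and 10.82 in B6. LEP-SQ mice were at 9.71, 10.18, 9.81 and 9.64. All but LEP_SQ_1032 lay below the B6 range. VEH-SQ mice were at 9.79, 10.13, 9.82 and 10.13, and VEH-ICV mice at 10.02, 9.55, 9.99 and 9.92. The LEP-ICV values, 10.30, 9.96, 9.95 and 10.50, included the highest of any ob/ob mouse, and LEP-ICVN gave 9.61, 10.04, 9.61 and 9.91. Psmb9 fell by 0.64 ± 0.18 in LEP-SQ against B6 (1.56-fold, adjusted p = 0.034, and 0.045 on high-background arrays alone). The groups overlapped, and leaving out B6_5542, B6_2021, B6_2029, B6_2035, LEP_SQ_1029, LEP_SQ_1039 or LEP_SQ_1041 moved the adjusted p to between 0.054 and 0.13 with changes of -0.57 to -0.64. Median scaling gave an adjusted p of 0.097. In vehicle-treated ob/ob against B6 Psmb9 fell by 0.56 ± 0.15 (adjusted p = 0.0028), and with the background term the value was -0.69 ± 0.25 (adjusted p = 0.084).

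**Figure D2:**
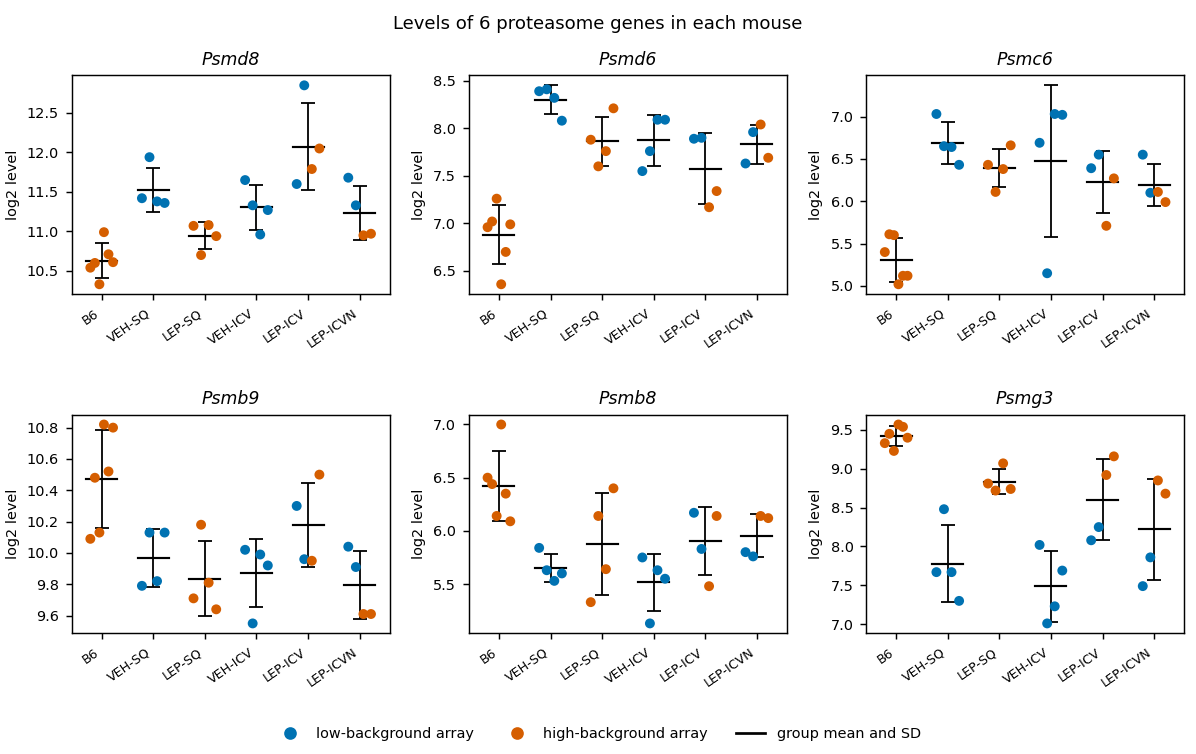
Log2 level (y axis) of Psmd8, Psmd6, Psmc6, Psmb9, Psmb8 and Psmg3 in each mouse (points) of the 6 groups (x axis), with group mean and SD. B6 mice are the lowest group for Psmd6 and Psmc6 and the highest for Psmb9 and Psmg3, and LEP-ICV is the highest group for Psmd8. Psmb8 was kept by the filter through its B6 arrays, so its order is not read.

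Promoter windows of the members these results turn on are shown to give their sequence context (RefSeq, mouse build GRCm38.p6, from 250 bases before to 50 after the annotated start, read on the gene's strand). Psmd6 and Psmc6 are the subunits called higher in LEP-SQ than in B6, and Psmb9 is the one called lower. Psmb8 is an inducible subunit that the filter kept through its B6 arrays. Psmd8 is the member called in LEP-ICV against LEP-ICVN. Capitals mark a match, on either strand, to the antioxidant response core TGACNNNGC, the interferon-stimulated element (GAAA, any 2 bases, GAAA) or the gamma-activated site TTCNNNGAA.
Psmd6, chr14:14120896-14121195, minus strand: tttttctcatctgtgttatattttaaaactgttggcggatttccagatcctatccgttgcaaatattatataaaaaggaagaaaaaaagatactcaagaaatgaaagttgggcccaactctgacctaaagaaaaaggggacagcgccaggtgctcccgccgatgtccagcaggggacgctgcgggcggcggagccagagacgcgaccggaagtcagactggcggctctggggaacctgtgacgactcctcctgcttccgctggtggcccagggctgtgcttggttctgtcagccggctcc
Psmc6, chr14:45329574-45329873, plus strand: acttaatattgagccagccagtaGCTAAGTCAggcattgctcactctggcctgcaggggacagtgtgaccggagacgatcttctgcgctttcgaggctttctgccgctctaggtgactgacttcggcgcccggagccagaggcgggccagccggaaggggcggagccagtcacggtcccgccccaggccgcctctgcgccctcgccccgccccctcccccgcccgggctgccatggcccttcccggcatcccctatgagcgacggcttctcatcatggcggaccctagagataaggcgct
Psmd8, chr7:29180624-29180923, minus strand: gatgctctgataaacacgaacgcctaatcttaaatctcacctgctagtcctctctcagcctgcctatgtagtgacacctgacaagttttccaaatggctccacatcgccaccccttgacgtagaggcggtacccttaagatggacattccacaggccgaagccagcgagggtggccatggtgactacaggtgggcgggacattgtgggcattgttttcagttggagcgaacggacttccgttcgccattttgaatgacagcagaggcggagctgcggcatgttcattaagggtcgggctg
Psmb9, chr17:34187281-34187580, minus strand: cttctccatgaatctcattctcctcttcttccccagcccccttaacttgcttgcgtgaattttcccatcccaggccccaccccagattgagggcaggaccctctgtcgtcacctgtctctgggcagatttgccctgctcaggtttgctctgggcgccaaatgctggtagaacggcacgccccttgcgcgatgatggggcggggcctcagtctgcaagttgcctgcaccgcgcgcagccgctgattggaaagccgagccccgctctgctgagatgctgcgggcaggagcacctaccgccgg
Psmb8, chr17:34197945-34198244, plus strand: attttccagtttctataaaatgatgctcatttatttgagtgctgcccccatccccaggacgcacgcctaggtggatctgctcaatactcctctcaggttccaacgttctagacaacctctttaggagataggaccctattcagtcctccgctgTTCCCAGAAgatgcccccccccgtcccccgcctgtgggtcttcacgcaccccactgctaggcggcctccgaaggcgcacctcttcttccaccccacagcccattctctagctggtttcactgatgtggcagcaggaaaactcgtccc
The windows of Psmb8 and Psmb9 lie in the same stretch of chromosome 17, on opposite strands. Psmc6 holds the antioxidant core on its minus strand, starting 227 bases before the start, and Psmb8 the gamma-activated site, 97 bases before it. Psmd6, Psmd8 and Psmb9 hold none of the 3 motifs in these windows. Over the 35 members with a promoter window, the antioxidant core occurred in 6 (17.1%, against 14% of 27025 genes), in Psmb5, Psmb6, Psmc6, Psmd9, Psmd12 and Psme4. The interferon-stimulated element occurred in 4 (11.4%, against 4%), in Psmb3, Psmd4, Psmd9 and Psme1, and the gamma-activated site in 3 (8.6%, against 9.6%), in Psmb8, Psmd2 and Psmg1. A match describes letters in a window and no match says only that those letters are not in it.

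Vehicle-treated ob/ob livers, on low-background arrays, differed from B6, on high-background arrays, in most members. More chaperones and inducible subunits were called lower than higher under each of the 4 ways of processing the signal. Each of these keeps the split in background, and with the background term 0 chaperones and 0 inducible subunits were called. The inducible counts include Psmb8, which the filter kept through B6. More regulatory particle subunits were called higher than lower except under median scaling. Of 41 members 33 were called, 15 higher and 18 lower, against 67.3% of all tested genes (35.4% higher and 31.9% lower). Without Psmb8 32 of 40 were called, 17 of them lower. In 21 members, Psmb8 among them, the vehicle and B6 values did not overlap (40.8% of all genes). The median change was -0.22 over the members and 0.07 over all genes. With the background term 1 member was called, Psmd6 (7.85% of all genes), and the median was 0.05. With that term 11 of 41 members had an unadjusted p under 0.05, beside 1914 of 7953 genes. Under median scaling, which moves the median of all genes to -0.65, 4 members were higher and 25 lower, and the regulatory particle counts below became 4 higher and 6 lower with a median of 0.15.

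Of the 16 regulatory particle subunits, 10 rose, 3 fell and 3 were not called, with a median change of 0.71 (0.38 with the background term). Other probes of Psmc5, Psmd7 and Psmd12 were called in the opposite direction, and by the mean of each gene's probes 10 rose and 4 fell with a median of 0.61, Psmc5 and Psmd7 then among those that fell and Psmd12 among those that rose. The base subunits Psmd1 and Psmd2, the scaffolds of the particle, rose by 1.25 ± 0.22 (adjusted p = 4e-05) and 1.40 ± 0.27 (adjusted p = 9.1e-05), and with the background term their changes were 0.41 and 0.39, not called. Psmd7, the lid partner of the deubiquitinase subunit Psmd14, rose by 1.22 ± 0.23, while Psmd14 itself differed by -0.01. Among the ATPases Psmc4 rose by 0.90 ± 0.14 (adjusted p = 9.3e-06, and 0.065 with the term), Psmc5 by 1.12 and Psmc2 by 0.32, while Psmc1 fell by 1.01 and Psmc3 fell by 0.67. Psmd4, a ubiquitin receptor, rose by 0.63 and Psmd12 fell by 0.93.

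In the core particle 4 of 12 constitutive subunits rose and 6 fell (median -0.26), and by the mean of probes 3 rose and 7 fell (median -0.82). Among alpha subunits Psma7 fell by 1.54 ± 0.23 (adjusted p = 5.7e-06), Psma5 fell by 1.51 ± 0.26 (adjusted p = 2.7e-05) and Psma4 fell by 0.92, while Psma2 and Psma3 rose by 0.24 and 0.39. Psma5 levels were 12.93, 12.71, 13.13, 12.77, 13.08 and 13.08 in B6, 11.66, 12.32, 11.49 and 11.32 in VEH-SQ, and 11.45, 11.01, 11.01 and 11.23 in VEH-ICV. No vehicle mouse reached a B6 mouse. The high- and low-background mice of LEP-ICVN were also apart in Psma5, at 12.76 and 12.78 against 11.58 and 11.02, and with the background term the change of vehicle-treated ob/ob against B6 was -0.25 (adjusted p = 0.61). Structural beta subunits Psmb1, Psmb2 and Psmb4 fell by 0.71, fell by 0.57 and fell by 1.24, and Psmb3 rose by 0.31. The catalytic subunit Psmb7 rose by 1.03 ± 0.15 by its brightest probe (adjusted p = 5.2e-06), but both of its other probes fell and the mean of the probes was -1.73 (adjusted p = 0.00019), and Psmb5 and Psmb6 were not called at 0.26 and 0.05.

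Among assembly chaperones 4 of 5 fell and 0 rose, with a median of -0.86 that became -0.10 with the background term. Psmg3, a chaperone of alpha ring assembly, had B6 levels of 9.23 to 9.57 with a median of 9.42. In VEH-SQ it was 7.67, 8.48, 7.67 and 7.30, and in VEH-ICV 8.02, 7.01, 7.23 and 7.69. All vehicle mice were below all B6 mice, and LEP-SQ mice, at 8.81, 8.72, 9.07 and 8.74, lay between. Psmg3 fell by 1.79 ± 0.23 in vehicle-treated ob/ob (3.45-fold, adjusted p = 9.2e-07), the largest fall of any member in this comparison, and with the background term the change was -0.80 (adjusted p = 0.073). On high-background arrays the LEP-ICVN change against B6 was -0.65 (2 mice against 6, adjusted p = 0.045 by limma, with 5.34% of all genes called). Psmg1 and Psmg2, which form the other chaperone pair, fell by 1.01 and fell by 0.51, and Psmd10, the chaperone known as gankyrin, fell by 0.86 ± 0.22 (0.10 with the term). The activators Psme3 and Psme4 fell by 0.59 and fell by 0.73, and Psme3ip1 rose by 1.19.

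**Figure D3:**
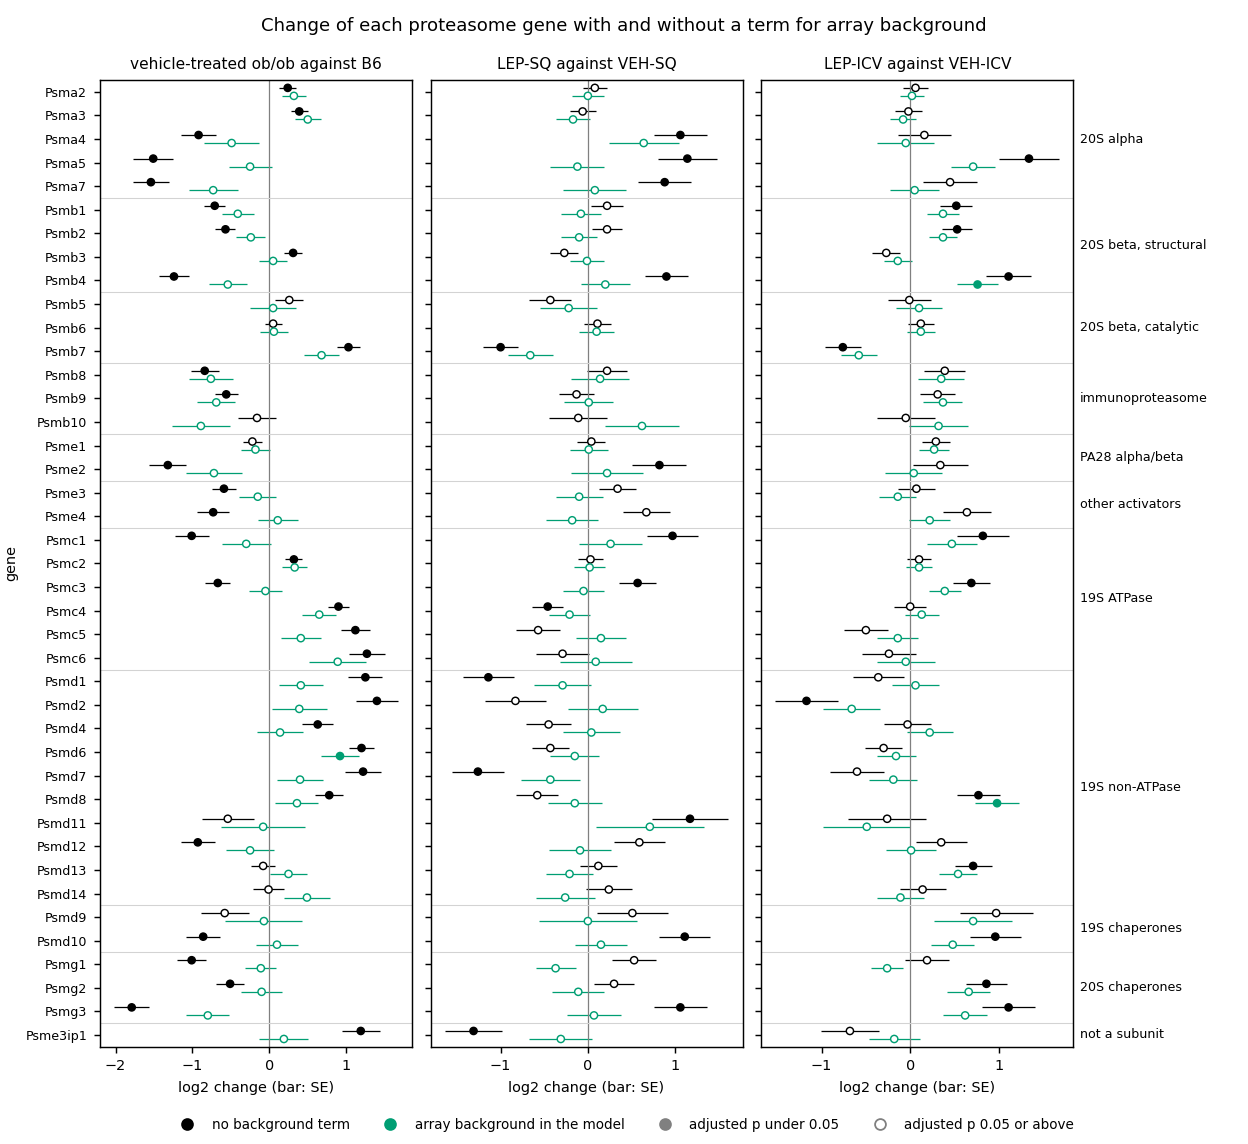
Log2 change with SE (x axis) of each of the 41 members (y axis) in 3 comparisons, without a background term (black) and with it (green); filled points have an adjusted p under 0.05. Filled black points number 33, 15 and 13 in vehicle-treated ob/ob against B6, LEP-SQ against VEH-SQ and LEP-ICV against VEH-ICV, and filled green points 1, 0 and 2.

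Array background moved with these differences. Within LEP-ICV and LEP-ICVN, where mice of 1 group lie in both classes, the high-background minus low-background difference (mean of both groups) correlated across the 41 members at r = -0.89 with the change in vehicle-treated ob/ob against B6, and at r = 0.92 with the change in LEP-SQ against VEH-SQ. Over all 7953 tested genes the same values were -0.83 and 0.82. Genes are not independent replicates, the points share arrays and normalization, and neither comparison shares mice with LEP-ICV or LEP-ICVN. The class difference was opposite in sign to the change in vehicle-treated ob/ob against B6 in 35 of 41 members and 6618 of 7953 genes. Of the 33 members called in vehicle-treated ob/ob against B6, 29 had a class difference of the opposite sign, the vehicle arrays being of the low and the B6 arrays of the high class. The others were Psma2 (class difference 0.08 beside a change of 0.24), Psma3 (0.11 and 0.39), Psmc2 (0.01 and 0.32) and Psmb9 (-0.14 and -0.56). Their class difference turned sign between LEP-ICV and LEP-ICVN in Psma2 (0.23 and -0.08), Psmc2 (0.09 and -0.08) and Psmb9 (0.09 and -0.36).

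Subcutaneous leptin was compared with saline to ask which members moved with peripheral leptin. Of 41 members 15 were called, 10 higher and 5 lower, against 40.1% of all tested genes (19.1% higher and 21% lower), and 22 did not overlap between groups (50.3% of all genes). With the background term 0 members were called by limma, and 0.277% of all genes were called. With that term 1 member had an unadjusted p under 0.05, beside 615 of 7953 genes. The called members' adjusted p values with the term were 0.48 to 0.98. Median scaling, which moves the median of all genes to 0.56, gave 16 members higher and 1 lower.

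Members that rose included the alpha subunits Psma4 (1.06 ± 0.30), Psma5 (1.14 ± 0.34) and Psma7 (0.88 ± 0.30), the beta subunit Psmb4 (0.90 ± 0.25), the chaperones Psmd10 (1.11 ± 0.29) and Psmg3 (1.06 ± 0.30), and the ATPases Psmc1 (0.97) and Psmc3 (0.57). Those that fell were Psmb7, by 1.0 ± 0.20 (adjusted p = 0.0021), Psmd1, by 1.14 ± 0.29, Psmd7, by 1.26 ± 0.30 (adjusted p = 0.0042), Psmc4, by 0.46 ± 0.18 (adjusted p = 0.049), and Psme3ip1, by 1.31 ± 0.33. Psma5 was at 13.05, 12.40, 12.93 and 12.96 in LEP-SQ. Each of these was above every VEH-SQ mouse, although VEH_SQ_1034, at 12.32, lay just under LEP_SQ_1032. Psma5 changed to -0.12 with the background term (adjusted p = 0.95). The lid subunit Psmd11, changed by 1.17 ± 0.44, lost its call without VEH_SQ_1034, VEH_SQ_1040 or any LEP-SQ mouse (adjusted p up to 0.15). Psmc4 lost its call without any of 17 of the 26 arrays (adjusted p up to 0.12), and Psma7 without VEH_SQ_1034 (0.068), VEH_SQ_1040 (0.057) or LEP_SQ_1041 (0.062). Psme2, at an adjusted p of 0.039, lost it without any VEH-SQ mouse, LEP_SQ_1039 or LEP_SQ_1041 (up to 0.12).

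Leptin in the ventricle was set against vehicle by the same route. Of 41 members 13 were called, 11 higher and 2 lower, against 25.1% of all tested genes (13.5% higher and 11.5% lower), and 11 did not overlap between groups (18.8% of all genes). The median change was 0.16 over the members and 0.01 over all genes. Under median scaling (median of all genes 0.47) 10 were higher and 0 lower. Both groups held low-background arrays, and with the background term 2 members were called, Psmb4 and Psmd8 (12.6% of all genes). On low-background arrays alone, with 2 LEP-ICV mice against 4, 0 members were called by limma (5.23% of all genes) and 7 had an unadjusted p under 0.05. The share of all genes at that unadjusted p was not counted for these arrays. Leaving out LEP_ICV_1017 gave 7 calls and leaving out VEH_ICV_1010, LEP_ICV_1014 or LEP_ICV_1019 gave 8, with the shares of all genes in these fits not given. In the fit of only the compared groups 0 members were called (6.31% of all genes).

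Psmd8, a lid subunit of the regulatory particle, was highest in LEP-ICV, at 11.60, 12.85, 11.79 and 12.05 in LEP_ICV_1003, LEP_ICV_1014, LEP_ICV_1017 and LEP_ICV_1019. In VEH-ICV it was 11.65, 11.33, 10.96 and 11.27, and in LEP-ICVN 10.95, 11.68, 10.97 and 11.33. Each control group held 1 mouse, VEH_ICV_1002 and LEP_ICVN_1004, just above LEP_ICV_1003, and the other mice did not overlap. B6 mice were at 10.33, 10.61 and 10.99 (lowest, median and highest), LEP-SQ mice at 11.07, 10.70, 11.08 and 10.94, and VEH-SQ mice at 11.42, 11.94, 11.38 and 11.36. Psmd8 rose in LEP-ICV by 0.77 ± 0.24 against VEH-ICV (1.7-fold, adjusted p = 0.023, and 0.011 with the background term, limma). Against LEP-ICVN it rose by 0.84 ± 0.24 (1.79-fold, adjusted p = 0.031), the 1 member called there (8.02% of all genes). That call was lost under median scaling (0.83, adjusted p = 0.097) and in the fit of only these groups (0.84, adjusted p = 0.46). On high-background arrays alone that value was 0.96 ± 0.24 (2 mice against 2, adjusted p = 0.029 by limma, 7.31% of all genes) and on low-background arrays 0.72 ± 0.39 (adjusted p = 0.44, 0.251% of all genes). Without LEP_ICV_1014 the changes were 0.51 against VEH-ICV (adjusted p = 0.11) and 0.58 against LEP-ICVN (adjusted p = 0.15). The first call was also lost without VEH_ICV_1011 (0.65, adjusted p = 0.081), and the second without LEP_ICV_1019, LEP_ICVN_1001 or LEP_ICVN_1008 (0.74 to 0.84, adjusted p = 0.063 to 0.099). In high-background LEP-ICV mice Psmd8 was 1.29 above B6 (2 mice against 6, adjusted p = 0.00058 by limma, with 26.3% of all genes called).

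By route, the change of Psmd8 with leptin differed by 1.34 ± 0.34, higher by the ventricle than under the skin, where the change was -0.58 ± 0.24 (adjusted p = 0.055). The subcutaneous part sets high- against low-background arrays, LEP-ICV was chosen by weight loss and the doses differ. Route cannot be told apart from these. Psmd8 was the 1 member whose route difference was called (adjusted p = 0.044 by limma, 1.71% of all genes). With the background term the difference was 1.13 ± 0.33 (adjusted p = 0.087, 1.22% of all genes called), and leaving out any of 17 of the 26 arrays moved the adjusted p above the threshold, up to 0.11 with differences of 1.08 to 1.40. The call was also lost under median scaling (1.06, adjusted p = 0.33), without a filter on dim probes (adjusted p = 0.057) and in the fit of only these groups (adjusted p = 0.088).

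Psmb4, a structural beta subunit, was 12.39, 11.57, 11.84 and 12.07 in VEH-ICV and 12.52, 13.25, 13.61 and 12.92 in LEP-ICV. The groups did not overlap, and LEP_ICV_1003 was the nearest to the controls. It rose by 1.11 ± 0.25 (2.15-fold, adjusted p = 0.0032), and by 0.76 ± 0.23 with the background term (adjusted p = 0.03). On low-background arrays the change was 0.92 (adjusted p = 0.079). Other members that rose without the term were Psma5 (1.34), Psmg3 (1.11), Psmd10 (0.96), Psmg2 (0.86), Psmc1 (0.82), Psmd13 (0.71), Psmc3 (0.69), Psmb2 (0.53) and Psmb1 (0.52), and Psmd2 fell by 1.17 ± 0.35 and Psmb7 fell by 0.76 ± 0.20. Psmd2 lost its call without VEH_ICV_1010, LEP_ICV_1014 or LEP_ICV_1017 (adjusted p up to 0.11), and Psmd10 without VEH_ICV_1010, LEP_ICV_1017 or LEP_ICV_1019 (up to 0.065).

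Against LEP-ICVN, the background term gave 3 members, Psmd8, Psmd13 and Psmg2, all higher in LEP-ICV (11.7% of all genes). Psmd13, a lid subunit, was 12.89, 12.88, 12.97 and 14.00 in LEP-ICV and 12.64, 12.64, 12.58 and 12.45 in LEP-ICVN (0.61 ± 0.21, adjusted p = 0.078, and 0.044 with the term). The core chaperone Psmg2 was 8.85, 9.04, 8.93 and 10.10 in LEP-ICV and 8.61, 8.31, 8.70 and 8.52 in LEP-ICVN (0.69 ± 0.23, adjusted p = 0.068, and 0.037 with the term). Psmd13, Psmg2 and Psmc2 were the 3 of 41 members without overlap between these groups, and the share over all genes was not counted. In Psmd13 and Psmg2 LEP_ICV_1019 stood well above the other mice. LEP-ICVN against VEH-ICV gave 0 called members by limma with or without the term (0% of all genes). Without the term 11 of 41 members had an unadjusted p under 0.05, much as over all genes (25.8%). With the term 0 members did, against 261 of 7953 genes. Without LEP_ICVN_1016, a mouse on a low-background array, 10 members were called without the term. The share of all genes called in that fit is not given, so the count is not read as particular to the members.

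Of the 5 immunoproteasome and inducible activator genes, 3 fell and 0 rose in vehicle-treated ob/ob against B6, beside 31.9% of all genes lower, with a median of -0.56. Without Psmb8, which the filter kept through B6, 2 of 4 fell (median -0.39). With the background term 0 of the 5 were called, at a median of -0.72 that includes Psmb8. In LEP-SQ against B6 1 fell and 0 rose (7.28% of all genes called) with a median of -0.40 that also includes Psmb8. In LEP-ICV against VEH-ICV 0 were called by limma (25.1% of all genes) and 0 had an unadjusted p under 0.05 (40.2% of all genes). Psmb8, which replaces Psmb5, was detected on all 6 B6 arrays, 1 LEP-SQ array and 2 LEP-ICVN arrays. It was detected on 0 of 8 vehicle and 0 of 4 LEP-ICV arrays. All 9 detections were on high-background arrays and 0 on low-background arrays. Detection of Psmb8 in B6 and not in vehicle mice therefore cannot be told apart from array background. Psmb8 levels in B6 were 6.09, 6.40 and 7.0 (lowest, median and highest), against 5.84, 5.63, 5.53 and 5.60 in VEH-SQ and 5.75, 5.13, 5.63 and 5.55 in VEH-ICV. Because the filter kept Psmb8 through its B6 arrays, neither a test of it against B6 nor its separation from B6 is read. No fold is given, since the lowest detected signal lies too near the B6 level to bound one. LEP-SQ mice, at 5.33, 6.14, 5.64 and 6.40, overlapped with B6.

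Psme2, the beta subunit of the activator, was detected on 4 B6, 2 LEP-SQ, 1 LEP-ICV and 1 LEP-ICVN arrays and on 0 of 8 vehicle arrays. All 8 of these detections were on high-background arrays and 0 on low-background arrays. Detection of Psme2 in B6 and not in vehicle mice therefore cannot be told apart from array background. B6 levels were 5.37, 6.26 and 6.80 (lowest, median and highest), VEH-SQ levels 5.11, 4.81, 5.11 and 4.92, and VEH-ICV levels 5.11, 4.66, 4.61 and 4.76. Every B6 mouse was above every vehicle mouse (adjusted p = 5.1e-05 by limma, and 0.23 with the term). Psme1, its alpha partner, was not called by its brighter probe in any of these comparisons (-0.22 in vehicle-treated ob/ob and -0.16 in LEP-SQ against B6). By its second probe it changed by -1.28 (adjusted p = 1.4e-06) and -0.75 (adjusted p = 0.024). Psmb10, which replaces Psmb7, differed by -0.16 by its brighter probe and by -1.05 (adjusted p = 0.0002) by its second in vehicle-treated ob/ob against B6.

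Within an array, the inducible minus constitutive difference of each catalytic pair was taken and its change from B6 described, without a test. Psmb8 minus Psmb5 was -3.14 ± 0.33 (SD, n = 6) in B6. Psmb8 was not above background on any vehicle or LEP-ICV array, so no difference from B6 is given for that pair. Psmb9 minus Psmb6 was -1.55 ± 0.28 in B6, and the ob/ob group means differed from it by -0.47 in LEP-ICV to -0.82 in LEP-ICVN. For Psmb10 minus Psmb7 the B6 mean was 0.53 ± 0.23, and the differences were -0.31 in LEP-ICV to -1.35 in VEH-SQ. In these pairs the 5 ob/ob group means were below B6. The size of this difference itself has no meaning between probes, and the Psmb10 pair rests on Psmb7 and Psmb10 probes whose alternatives moved differently.

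**Figure D4:**
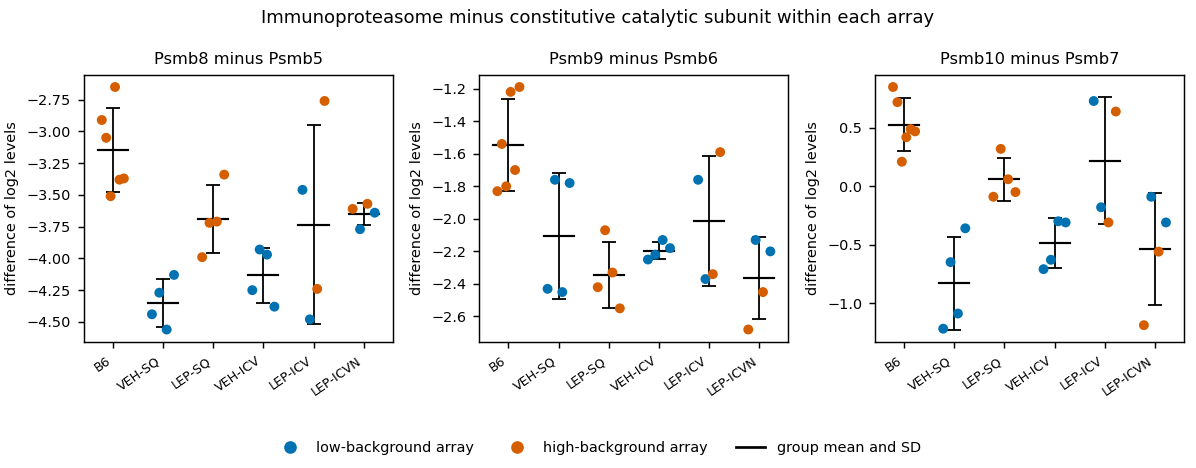
Inducible minus constitutive log2 level within each array (y axis, points are mice, bars mean and SD) for the 3 catalytic pairs in the 6 groups (x axis). The B6 means are -3.14, -1.55 and 0.53, and B6 has the highest mean for the Psmb9 and Psmb10 pairs; Psmb8 was not above background on vehicle and LEP-ICV arrays, so no order is read from its points there.

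Leukocyte markers were read beside these genes. In bulk liver RNA fewer cells of a type and less RNA per cell cannot be told apart. Of 11 macrophage and Kupffer cell marker symbols listed, with Adgre1 also under its older name Emr1, 8 had a probe and 7 were kept. Cd5l was detected on 0 arrays. The summed level of these markers was 12.72 to 13.56 in B6, 12.50 to 12.80 in LEP-SQ and 11.45 to 12.31 in VEH-SQ. It was 11.45 to 12.12 in VEH-ICV, 12.98 to 13.62 in LEP-ICV and 11.38 to 12.52 in LEP-ICVN. Of 8 T and NK cell markers Cd4, Cd8a, Cd247, Nkg7 and Il2rb were detected on 0 arrays, and the summed level was 7.95 to 8.92 in all groups. Both dendritic cell markers were undetected, and the B cell sum was 6.68 to 8.10 with Ms4a1 undetected. General leukocyte markers summed to 12.83 to 13.80 in LEP-ICV and 11.27 to 12.79 in the other groups. In vehicle-treated ob/ob against B6, where Psmb9 and Psme2 fell, 5 of the 7 macrophage markers fell (31.9% of all genes lower), C1qa, C1qb, C1qc, Vsig4 and Clec4f, by 0.55 to 3.19. Adgre1 rose by 0.76 and Marco was at 0.06, and the general leukocyte marker Coro1a rose by 0.68. Near the detection limit, the T cell marker Cd3g fell by 1.19 (adjusted p = 1.7e-05 by limma) and the B cell marker Cd79a by 0.63 (adjusted p = 0.02). Cd3d, Cd3e and Cd79b were not called. These marker changes cannot be told apart from array background, and none is given with the background term. In LEP-ICV against VEH-ICV, where Psmb4 and Psmd8 rose, all 7 macrophage markers and both general leukocyte markers rose (13.5% of all genes higher). Of 5 stellate cell markers Col3a1 (3.19) and Des (1.78) rose in vehicle-treated ob/ob against B6 and fell by 1.72 and fell by 1.57 in LEP-SQ against saline. Their summed level was 12.69 to 13.68 in B6, 13.01 to 14.52 in the vehicle groups and 13.35 to 13.60 in LEP-SQ. Of 4 tested endothelial markers, Kdr being detected on 0 arrays, Pecam1 (1.33) and Stab1 (0.57) rose in the first of these comparisons and fell in the second, with sums of 10.12 to 11.10 over all groups. The part of these cell types in the results was not tested.

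Several members had more than 1 tested probe, and these did not always move together. Of 13 such genes, probes disagreed in direction in 6 in vehicle-treated ob/ob against B6, and 5 of these were called by their brightest probe: Psmb7, Psmc5, Psmd7, Psmd12 and Psmg2. For Psmb7 the brightest probe changed by 1.03 and the other probes by -2.73 (adjusted p = 9.8e-05) and -3.48 (adjusted p = 3.4e-05). Psmc5 was 1.12 by 1 probe and -2.20 (adjusted p = 8.1e-05) by the other, Psmd7 1.22 and -2.32, and Psmd12 -0.93 and 2.11. In LEP-SQ against VEH-SQ, Psmb7, Psmd7 and Psmd11 were called with a probe of the opposite sign; Psmb7 was -1.0 by its brightest and 2.26 and 2.90 by its other probes. In LEP-ICV against VEH-ICV this held for Psmb7. The direction of these genes therefore depends on the probe. In LEP-SQ against B6 the second probe of Psmd11 was called higher (1.28, adjusted p = 0.031), while its brighter probe was not (0.55, adjusted p = 0.48).

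**Figure D5:**
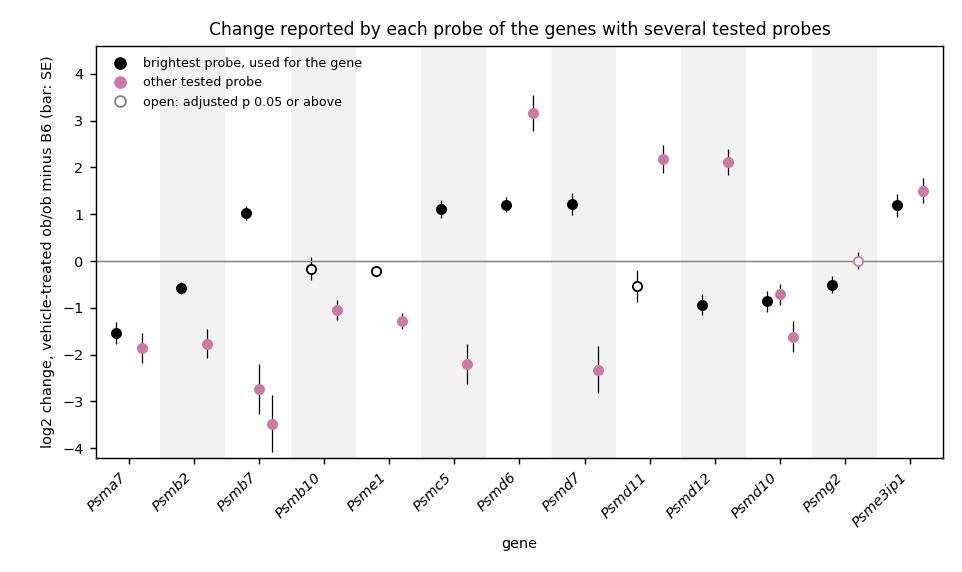
Log2 change in vehicle-treated ob/ob against B6 with SE (y axis) for each tested probe of the 13 members with several probes (x axis). Psmb7 ranges from 1.03 to -3.48 and Psmc5 from 1.12 to -2.20, while both Psmd6 probes lie above 0, at 1.2 and 3.16.

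Genes that work with the proteasome were counted from a list of 27 symbols, which holds some genes under an older name as well. Of these partners 11 were tested. In vehicle-treated ob/ob against B6, 6 rose and 3 fell (67.3% of all genes called), and with the background term 1 rose and 0 fell (7.85%). That gene was Ubqln1, a shuttle that carries ubiquitinated proteins to the proteasome, at 1.09 ± 0.14 (adjusted p = 8.1e-07) and 0.81 with the term (adjusted p = 0.019). In LEP-SQ against B6 Ubqln1 (0.64) and the shuttle Rad23b (0.57) rose and Ubqln4 fell by 0.70, each also called with the term. Of all genes 7.28% were called there without the term and 12.7% with it. Pomp, the maturation protein of the core, rose by 1.08 ± 0.25 in LEP-ICV against VEH-ICV (adjusted p = 0.0035) and by 0.68 with the term (adjusted p = 0.029). With subcutaneous leptin 2 partners rose and 3 fell against saline (40.1% of all genes called), and 0 did with the term (0.277%). Nfe2l1 rose by 1.48 ± 0.25 in vehicle-treated ob/ob against B6 (adjusted p = 2.4e-05), with a value of 0.35 under the term (adjusted p = 0.49).

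Of 15 genes of class I presentation and interferon gamma signalling 14 were tested, and 6 rose and 4 fell in vehicle-treated ob/ob against B6 (67.3% of all genes called), with 0 called under the background term. The peptide transporter subunit Tap1 fell by 1.5 ± 0.21 (adjusted p = 3.1e-06, and 0.052 with the term), and the peptide loading chaperone Tapbp fell by 1.32 ± 0.18 (adjusted p = 2.3e-06, and 0.052 with the term). In LEP-SQ against B6 Tapbp fell by 0.91 ± 0.22 (adjusted p = 0.012) and the kinase Jak1 rose by 1.23 ± 0.37 (adjusted p = 0.044). The class I light chain B2m was not called in vehicle-treated ob/ob against B6, at -0.04 ± 0.13. Without the term, 3 rose and 2 fell by the subcutaneous route (40.1% of all genes called) and 1 rose and 1 fell by the ventricle (25.1%). With the term, 0 were called by the subcutaneous route (0.277% of all genes) and 1 rose by the ventricle (12.6%).

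Across all 6 groups, 32 of 41 members differed by limma's F test (69.4% of all genes), and with the background term 4 did: Psmb9, Psmc4, Psmd6 and Psmd8 (24% of all genes).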

How the data were processed

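Expression was measured in liver of 26 mice on Illumina MouseRef bead arrays, with 1 array for each mouse. The authors deposited raw probe intensity values summarised with BeadStudio 2.0, and beside each a detection score, a fraction between 0 and 1 that rises with signal and and detection p stands here for 1 minus that score. As a further table the authors deposited log2 values from lumi (version not given in the sources used here) by variance stabilization and robust spline normalization, which served as an alternative. Groups came from the sample labels. Nothing used here pairs mice or gives chips or dates. Replicates are separate mice, 4 or 6 in a group. The number of arrays limits the precision, since intensities carry no counts.

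Background correction and quantile normalization of the intensities used neqc (offset 16) of limma 3.58.1 under R 4.3.3. Probes with a detection p under 0.01 on at least 4 arrays were tested (11001 probes, 7953 genes), and each gene is represented by its brightest tested probe. Of 25697 probes, 23978 had 1 symbol in the platform annotation, 0 several and 1719 none. All 6 groups were fitted in 1 model, with Benjamini-Hochberg adjustment over all tested probes. The study's own model regressed expression on weight loss; group contrasts were fitted here because groups are compared. Array background class, split at the widest gap between arrays, entered as a term or as within-class fits.

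Members, gene lists and alternatives were chosen with earlier results of these data known. The rule for named members took Psmb5 to Psmb10, Psme1 and Psme2, the 5 called members with the largest rise and the 5 with the largest fall in each comparison, and the member with the lowest p of the F test in each role, which gave 25. Other members appear in full lists of calls or as partners of a named member, and Psmd13 was named after its values were seen. The alternatives were the background term, single background classes, the authors' log2 values, no background correction, median scaling, other detection filters (none, or at least 13 arrays), array weights, only the groups compared, the mean of a gene's probes, and each mouse left out. LEP-ICVN on high-background arrays in place of vehicle-treated ob/ob was added after seeing the data. The steps were tested on simulated data. Motifs were searched in RefSeq promoter windows, which 35 of the 41 members had. Figures were drawn with matplotlib 3.10.9 in Python 3.11.15.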

Additional observations from a re-analysis of the deposited data

Results flagged for a closer look

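Among 150 groups of values of the named members, 4 held a mouse far from the others of its group, and chance gives about 1 in 20 such groups. Psmd7 was 12.58 in VEH_ICV_1002 and 12.95 to 13.02 in the other VEH-ICV mice. Psmg2 was 10.10 in LEP_ICV_1019 and 8.85 to 9.04 in the others. Psmd8 was 11.94 in VEH_SQ_1034 against 11.36 to 11.42, and Psme4 was 10.92 in B6_2021 against 11.39 to 11.62. The change of Psmd8 with leptin differed between the routes by 1.34 on the log2 scale in a test of that difference. It was positive in the ventricular groups and negative in the subcutaneous groups. The call was lost with the background term, under median scaling and without any of 17 of the 26 arrays. The subcutaneous part sets high- against low-background arrays, LEP-ICV was chosen by weight loss and the doses differ. Route cannot be told apart from these.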

How the results depend on the processing

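No paired analysis was possible because mouse numbers differ between the groups, so no replicate block could be fitted. The counts of called members were, without an alternative, 15 in LEP-SQ against VEH-SQ, 13 in LEP-ICV against VEH-ICV, 1 against LEP-ICVN, 0 in LEP-ICVN against VEH-ICV, 33 in vehicle-treated ob/ob against B6, 3 in LEP-SQ against B6, 1 by route and 32 by the F test. The shares of all genes called were 40.1%, 25.1%, 8.02%, 0%, 67.3%, 7.28%, 1.71% and 69.4%. With the background class as a term the counts became 0, 2, 3, 0, 1, 3, 0 and 4. The shares of all genes were then 0.277%, 12.6%, 11.7%, 0%, 7.85%, 12.7%, 1.22% and 24%. On low-background arrays alone 0 were called in LEP-ICV against VEH-ICV, against LEP-ICVN and by the F test (5.23%, 0.251% and 0.868% of all genes). On high-background arrays 6 were called by the F test (23.7% of all genes). With LEP-ICVN in place of the vehicle groups there were 2 calls against B6 (5.34% of all genes). Array weights gave 31 in LEP-SQ against VEH-SQ, 13 in LEP-ICV against LEP-ICVN, 32 in LEP-ICVN against VEH-ICV (70.5%, 36.3% and 73.3% of all genes called), 19 in LEP-SQ against B6 (35.3%) and 3 by route (18.2%). A fit of each comparison's own groups alone called 0 in LEP-ICV against VEH-ICV (6.31% of all genes), 0 against LEP-ICVN (0.201%), 9 in LEP-SQ against B6 (23.2%) and 0 by route (0.956%). Median scaling gave 0 in LEP-ICV against LEP-ICVN (5.34% of all genes), 1 in LEP-SQ against B6 (3.65%) and 0 by route (0.239%). The authors' log2 values gave 2 and 5 in the first and second of these (9.27% and 7.66% of all genes). No background correction gave 2 in the first (9.32%), and no filter on dim probes gave 0 by route (0.597%). Leaving out each mouse gave 10 to 19, 7 to 15, 0 to 3, 0 to 10, 31 to 34, 1 to 3, 0 to 1 and 27 to 32, in the order of the first list. Shares of all genes are not given for these counts. The count of 10 in LEP-ICVN against VEH-ICV came without LEP_ICVN_1016, the count of 1 in LEP-SQ against B6 without LEP_SQ_1041, and the 0 in LEP-ICV against LEP-ICVN without LEP_ICV_1014, LEP_ICV_1019, LEP_ICVN_1001 or LEP_ICVN_1008.

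Among the 25 named members directions turned in 16 cases in which a call stood before or after, and among the other members in 11, of which Psmc5 and Psmd12 in vehicle-treated ob/ob against B6 were called both ways, at -0.54 and 0.59 by the mean of probes. The mean of a gene's probes gave Psmb7 as 1.39 in LEP-SQ and 0.73 in LEP-ICV against vehicle and -1.73 in vehicle-treated ob/ob against B6, Psmd7 as 0.66 and -0.55 in LEP-SQ and ob/ob, and Psmd11 as 0.82 in ob/ob. The background term gave Psma5 as -0.12 in LEP-SQ, and Psmd10 as 0.10 and Psme4 as 0.11 in ob/ob. Median scaling gave Psmc4 as 0.07 in LEP-SQ and Psmb6 as -0.64 in ob/ob. High-background LEP-ICVN in place of vehicle-treated ob/ob gave Psmd10 as 0.20, Psma4 as 0.06, Psme3ip1 as -0.32, Psmd7 as -0.13 and Psme4 as 0.23. The cause was not tested. Changes of sign of members uncalled both ways were not counted. Psmb8, Psme2 and Psmc6 lie near background, which limits what their signals can show.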
